A study of Arabidopsis thaliana with 44 samples.

Results

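The report concerns 39 nuclear Arabidopsis loci that encode proteins of the cytosolic ribosome. They were taken from a table of 34133 loci by a fixed list of locus identifiers, chosen with earlier results of these data known. They code for 24 proteins, with 14 loci for the 40S subunit and 25 for the 60S subunit. Paralogs of a protein are described side by side. RNA sequencing was done on whole seedlings of Arabidopsis thaliana. The seedlings had germinated and grown in the dark for 14 days on MS medium with sucrose before fixation in RNAlater. Growth was either aboard the International Space Station or in matching hardware on the ground, where the run was delayed by 2 days. The 5 genotypes were wild type Col-0 (WT), bzip28-2, bzip60-2, the double mutant bzip28-2 bzip60-1 and the double mutant ire1a-4 ire1b-2. The mutants are in the Col-0 background, carry alleles of genes for sensors or transcription factors of the unfolded protein response and are called bzip28, bzip60, bzip28bzip60 and ire1aire1b here. Each genotype had 4 flight and 4 ground libraries, and each mutant genotype is represented by the stated alleles alone. Plates held many seedlings, collected whole, so fewer cells of a type and less RNA per cell cannot be told apart. The submitters call the libraries of a group biological replicates and name no repeat of the flight or the ground run, so the p-values cover the spread between libraries and not between runs.

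A ribosome is built from a small 40S subunit, which decodes the messenger RNA, and a large 60S subunit, which joins amino acids and releases the growing chain through a tunnel. Most of the proteins are present in a single copy per ribosome, the acidic stalk proteins being known exceptions, and in plants nearly every one is encoded by a small family of paralogs. Transcripts of these genes are known to be abundant in growing and dividing tissue, where new ribosomes are made.

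The values are FPKM, fragment numbers corrected for transcript length and for the mapped fragments of a library, so levels can be compared between genes. AT2G01021, a locus within the ribosomal RNA genes, took 2.97 to 47.2 percent of a flight library's total FPKM and 36.1 to 89.9 percent of a ground library's. The deposited values of the other genes were on a lower scale on the ground than in flight. Libraries with like shares of AT2G01021 could still differ in scale, and what sets the scale was not tested. FPKM was therefore rescaled with a median ratio over 14104 genes, and changes are differences of log2(rescaled FPKM + 1) unless deposited values are named. The median change over all 19186 tested genes in WT was 0.10 after rescaling and 0.88 as deposited. The disrupted transcripts were checked in the libraries: bZIP60 was at 9.78 to 14.1 rescaled FPKM in bzip60 against 23.3 to 72.2 in WT, and IRE1A at 0.966 to 1.79 in ire1aire1b against 25.3 to 44.2 in WT. IRE1B was at 2.71 to 4.58 in ire1aire1b against 6.25 to 9.03 in WT, and bZIP28 at 2.44 to 4.09 in bzip28bzip60 against 16.1 to 32.4 in WT. In the 8 libraries labelled bzip28 the bZIP28 transcript was at 51.6 to 103, above all WT libraries. These are therefore libraries labelled bzip28 throughout, also where bzip28 alone is written. The same allele, bzip28-2, is stated for bzip28bzip60, and what sets the difference in transcript level was not tested.

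The 39 genes took up a larger part of the transcript pool in flight than on the ground. In WT they made up 1.88 ± 0.0614 percent of the FPKM of nuclear loci other than AT2G01021 in flight and 1.25 ± 0.0690 percent on the ground (SD, n = 4 each). Over the 5 genotypes the flight libraries lay between 1.67 and 1.97 percent and the ground libraries between 1.14 and 1.50 percent, so no flight library overlapped a ground library. This share is a ratio within a library and does not depend on the scaling between libraries. The highest ground library belonged to bzip28bzip60, whose ground mean of 1.33 ± 0.123 percent (SD, n = 4) was the highest of the 5 ground groups. That rank rests on this library, since the others of the group were at 1.29, 1.29 and 1.22 percent, beside a mean of 1.28 percent in bzip60 ground.

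**Figure D1:**
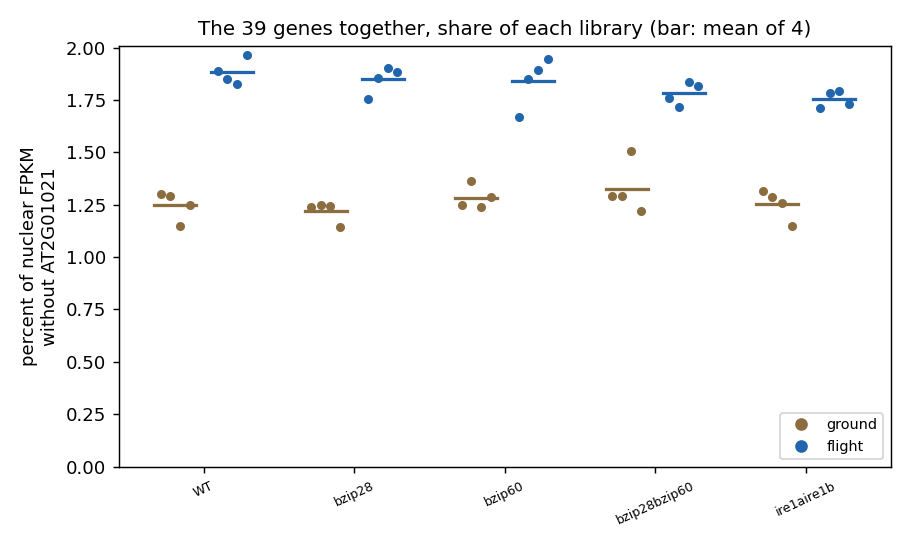
Summed FPKM of the 39 genes as a percent of the FPKM of nuclear loci other than AT2G01021, for each library (points) by genotype, with the mean of 4 libraries as a bar. Flight libraries lie between 1.67 and 1.97 percent, and ground libraries between 1.14 and 1.50 percent.

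Most of these genes rose in flight in every genotype. Of the 38 that could be tested, 34 were higher and 1 lower in WT (limma, Benjamini-Hochberg adjusted p below 0.05), where 35.5 percent of all tested genes were higher and 24.9 percent lower. In the libraries labelled bzip28, 33 were higher and 1 lower, against 35.1 and 24.2 percent of all genes. In bzip60, 31 were higher and 0 lower, against 33.2 and 22.8 percent, with 33 of the 38 past an unadjusted p of 0.05 in either direction. In bzip28bzip60, 29 were higher and 1 lower, against 32.6 and 22.5 percent. In ire1aire1b, 30 were higher and 1 lower, against 34.2 and 23.9 percent. The median log2 change of the 38 genes was 0.60 in WT, 0.57 in the libraries labelled bzip28, 0.55 for bzip60, 0.42 for bzip28bzip60 and 0.45 for ire1aire1b, beside 0.08 to 0.10 over all tested genes. As deposited, the same medians were 1.52, 1.60, 0.83, 1.14 and 1.41 beside 0.88, 0.97, 0.33, 0.71 and 0.92 over all tested genes. On the deposited scale 38, 38, 33, 37 and 38 of the 38 genes were higher in the same order and 0 lower, where 77.8, 82.2, 40.6, 71.2 and 80.6 percent of all genes were.

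Of the 38 genes 27 were higher in all 5 genotypes and 7 in 1 to 4 of them, beside 24.2 and 21.2 percent of all tested genes. All 20 flight libraries lay above all 20 ground libraries for 20 of the 38 genes, as for 14.2 percent of all tested genes. In WT alone the flight libraries lay above the ground libraries for 33 genes and below them for 1, beside 31.2 and 21.6 percent of all genes. For the libraries labelled bzip28 this held for 34 genes above and 1 below (29.7 and 20.2 percent of all genes), and for bzip60 for 30 and 1 (29.8 and 20.0 percent). The bzip28bzip60 libraries gave 26 and 1 (31.3 and 20.9 percent), and those of ire1aire1b gave 28 and 0 (28.4 and 20.2 percent). Sequencing lanes were unevenly used, since lane 1 held flight libraries and lane 3 ground libraries. A fit of lane 4 alone, chosen after the data had been seen, had 4 flight and 5 ground libraries of WT, bzip28 and ire1aire1b. It gave 31 of the 38 genes higher and 0 lower, with a median change of 0.56 and with 31.2 percent of all genes higher and 21.8 percent lower. Lane 2 held 1 flight and 2 ground libraries of bzip60, with a median change of 0.54 and 36 of 38 genes above 0, and none of the 19186 genes tested there was called (limma), with 21 of the 38 at an unadjusted p below 0.05.

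Genes of both subunits were mostly higher. In WT 12 of 13 tested genes of the 40S subunit were higher and 0 lower, with a median of 0.61. Of the 25 genes of the 60S subunit 22 were higher and 1 lower, with a median of 0.59. Of all tested genes in WT 35.5 percent were higher and 24.9 percent lower. Within each subunit the changes were spread widely, from 0.06 to 1.09 in the 40S set and from -0.43 to 1.32 in the 60S set in WT.

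**Figure D2:**
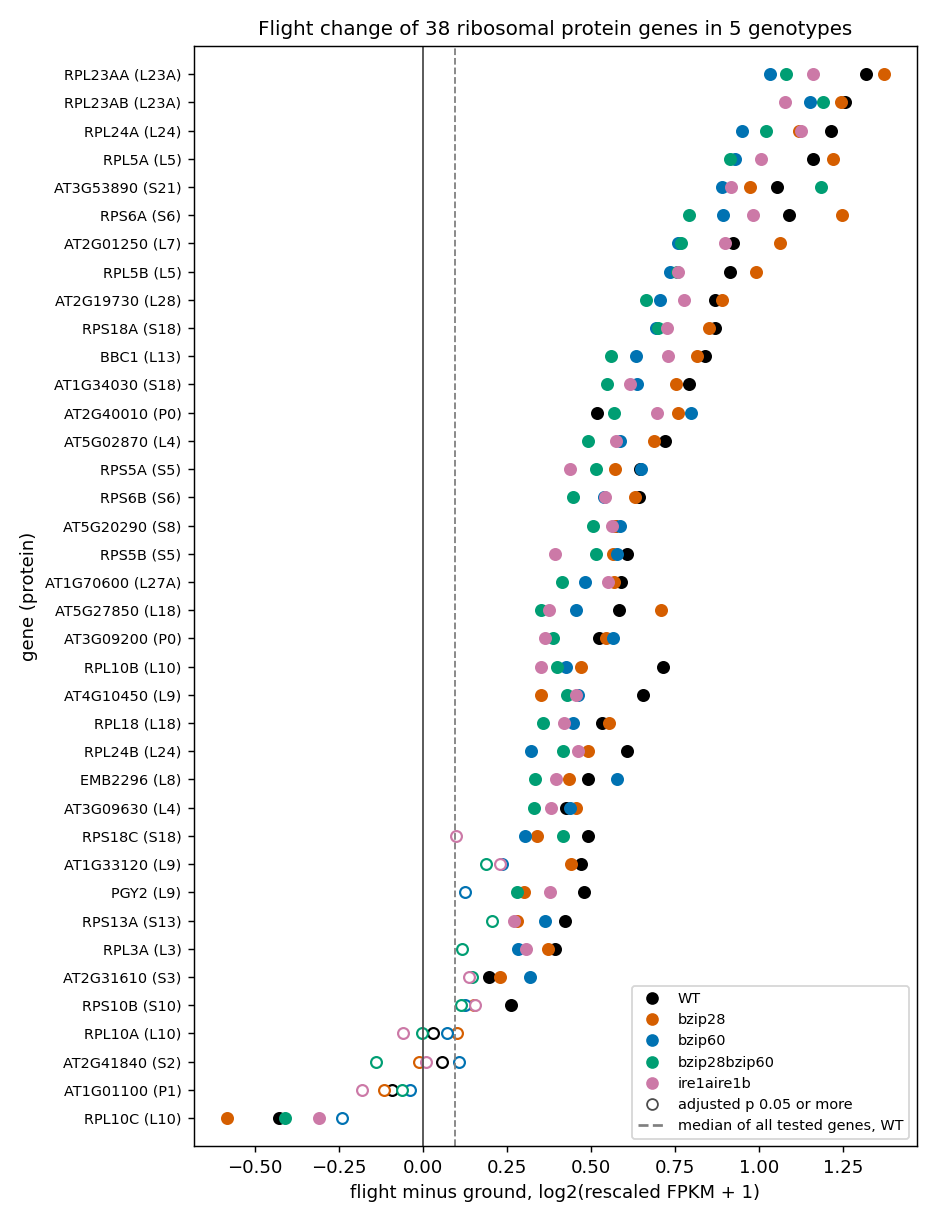
Flight minus ground in log2(rescaled FPKM + 1) for the 38 tested genes, ordered by their mean over the 5 genotypes (colours). Filled points have a limma adjusted p below 0.05, the dashed line is the median of all tested genes in WT, and RPL23AA lies at the top and RPL10C at the bottom.

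Among the genes of the 40S subunit, the largest average changes over the genotypes were those of AT3G53890, for protein S21, with 1.00, and of RPS6A with 1.00. S6 is the ribosomal protein phosphorylated by the S6 kinases downstream of the TOR kinase. RPS6A was at 231, 271, 248 and 268 rescaled FPKM in the WT flight libraries and at 141, 124, 98.5 and 115 in the WT ground libraries. The flight libraries were all above the ground libraries, and the change was 1.09 (SE 0.10, limma adjusted p = 2.31e-11, Benjamini-Hochberg). Its paralog RPS6B had the higher level in both conditions. It was at 364, 354, 352 and 381 in WT flight and at 229, 250, 216 and 233 in WT ground. The groups of RPS6B again did not overlap, with a change of 0.64 (SE 0.08, limma adjusted p = 6.94e-09).

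The 3 genes for S18, a protein of the head of the small subunit, differed in size of change. The average changes were 0.77 for RPS18A, 0.67 for AT1G34030 and 0.33 for RPS18C. RPS18C, the most abundant of them, was higher in 4 of the genotypes, and ire1aire1b gave a limma adjusted p of 0.489. The paralogs for S5, a protein at the exit channel of the messenger RNA, had close averages of 0.56 for RPS5A and 0.53 for RPS5B. AT5G20290, for S8, was the most abundant of the 39 genes in flight, at 519 to 756 rescaled FPKM in flight and 351 to 497 on the ground, and had an average change of 0.56. Its paralog AT5G59240 was listed at 0.503 to 1.16 in flight and at 0 in 7 of the 20 ground libraries, the highest ground value being 0.553. It did not reach a mean of 1 FPKM and was the locus left out of the tests.

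Smaller changes in the 40S set were those of RPS13A with an average of 0.31, of AT2G31610 for S3 with 0.21 and of RPS10B with 0.16. S3 lies where the messenger RNA enters the subunit. RPS10B was higher in WT alone, with a change of 0.26 (SE 0.08, limma adjusted p = 0.00602), and its changes in the 4 mutants of 0.11 to 0.16 missed the threshold. No difference between its WT and mutant responses passed the test.

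AT2G41840, for S2, which also lines the entry channel, had the smallest change of the 40S set. In WT it was at 359, 311, 366 and 410 rescaled FPKM in flight and at 334, 384, 318 and 349 on the ground. The highest and the lowest library were both from flight, and the groups overlapped. The change in WT was 0.06 (SE 0.09, limma adjusted p = 0.593). In the mutants the flight groups lay within 314 to 417 and the ground groups within 322 to 447. In bzip28bzip60 the change of -0.14 became -0.23 and was called without ground replicate 4 (limma adjusted p = 0.0359). As deposited the gene was called higher in all 5 genotypes with changes of 0.38 to 1.04, close to the medians over all genes on that scale.

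The largest changes of the 39 genes were in the pair for L23A, a protein at the rim of the peptide exit tunnel where chaperones and the signal recognition particle dock. RPL23AA was at 338, 310, 297 and 333 rescaled FPKM in the WT flight libraries and at 147, 132, 120 and 113 in the WT ground libraries. All 4 flight libraries lay far above the 4 ground libraries. The change was 1.32 (SE 0.11, limma adjusted p = 6.41e-12). In the mutants RPL23AA lay between 247 and 339 in flight and between 99.5 and 168 on the ground. RPL23AB was at 114, 101, 93.4 and 117 in WT flight and at 43.2, 37.9, 51.0 and 44.3 in WT ground. It too had no overlap, and its change of 1.26 (SE 0.12, limma adjusted p = 2.03e-10) was close to that of RPL23AA. In the mutants it lay between 85.6 and 111 in flight and between 31.1 and 59.6 on the ground.

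**Figure D3:**
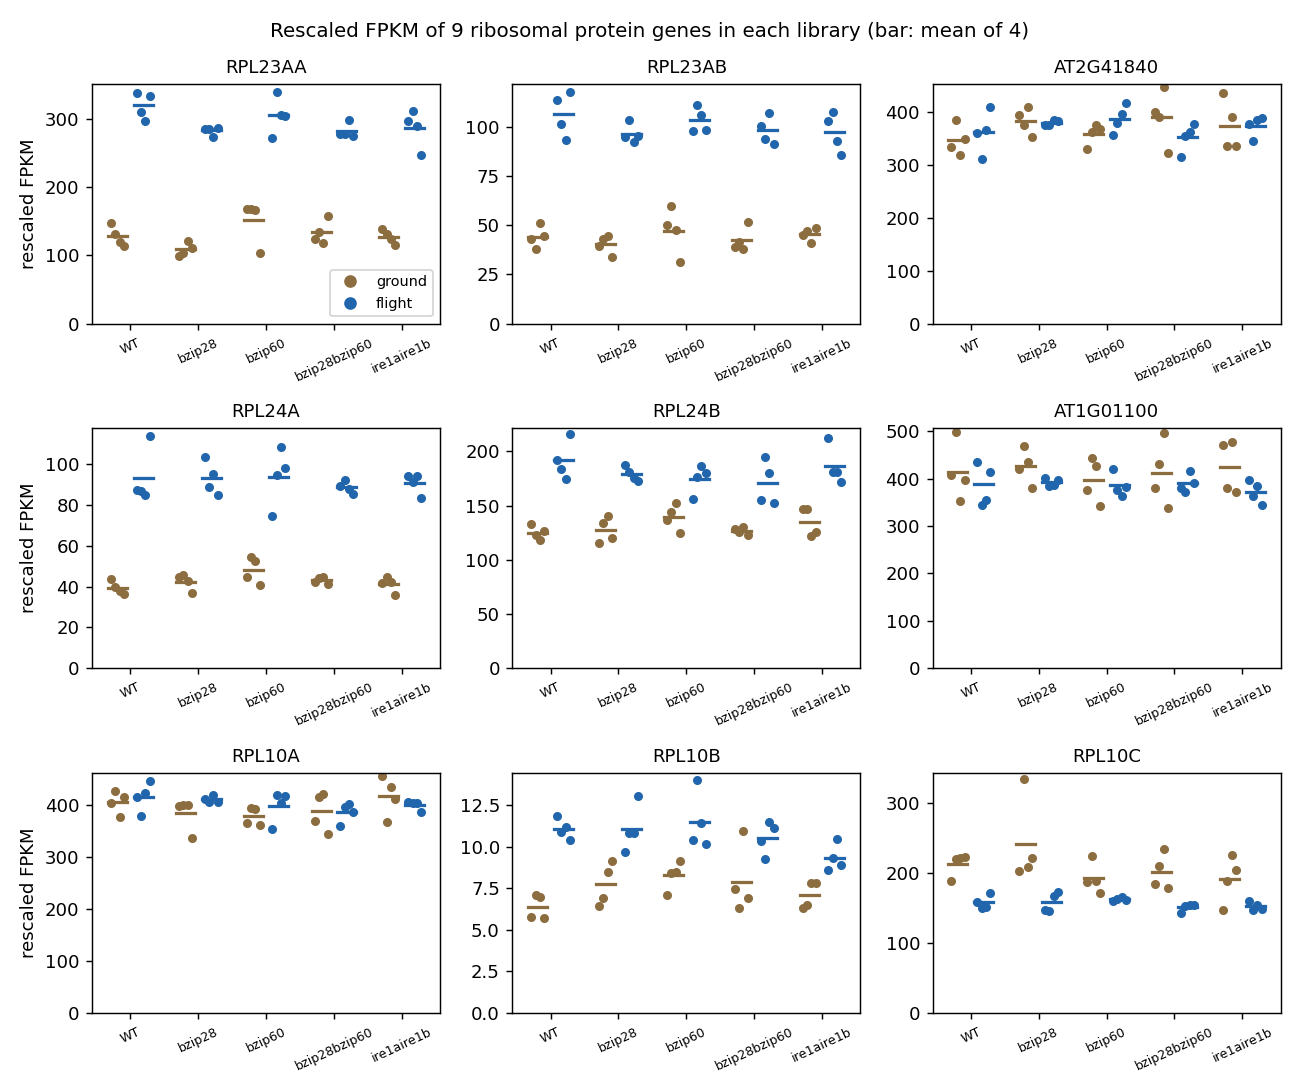
Rescaled FPKM of 9 genes in every library (points) by genotype, ground beside flight, with the mean of 4 libraries as a bar. Flight is above ground for RPL23AA, RPL23AB, RPL24A and RPL24B. The conditions overlap for AT2G41840 and AT1G01100, and for RPL10A in all genotypes but bzip28. RPL10C is lower in flight on this scale but not as deposited.

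L24 is a protein of the 60S subunit that faces the small subunit. In Arabidopsis RPL24B is known as STV1 and is needed for translation to restart behind short upstream reading frames. RPL24A was at 87.5, 87.1, 85.1 and 114 rescaled FPKM in WT flight and at 43.5, 40.0, 37.6 and 36.6 in WT ground. Flight replicate 4, from lane 4, stood above the other 3 flight libraries, from lane 1, and all 4 were above the ground libraries. The change was 1.22 (SE 0.10, limma adjusted p = 3.38e-12). RPL24B, the paralog with the higher level, was at 192, 184, 174 and 216 in WT flight and at 133, 123, 118 and 127 in WT ground. Its groups did not overlap either, but its change of 0.61 (SE 0.08, limma adjusted p = 1.90e-07) was smaller. In the mutants RPL24A lay between 74.5 and 109 in flight and between 35.7 and 54.6 on the ground, and RPL24B between 153 and 213 in flight and between 115 and 153 on the ground.

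The 2 promoters of this pair are shown because the paralogs differ both in their flight change and in a known element of ribosomal protein promoters. This is the site II element, written AGCCCA or GGCCCA, or TGGGCT or TGGGCC when on the opposite strand. The bases run from the nearest upstream gene, at most 250 bases away, to the base before the annotated start, in RefSeq assembly TAIR10.1. They lie at chr2:15352014-15352263 for RPL24A and chr3:19662026-19662194 for RPL24B, both on the minus strand, and the capitals mark site II matches.
RPL24A: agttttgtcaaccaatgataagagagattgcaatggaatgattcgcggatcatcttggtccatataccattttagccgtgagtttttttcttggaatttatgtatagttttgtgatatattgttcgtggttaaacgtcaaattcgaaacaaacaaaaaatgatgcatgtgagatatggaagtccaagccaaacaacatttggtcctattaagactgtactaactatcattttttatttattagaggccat
RPL24B: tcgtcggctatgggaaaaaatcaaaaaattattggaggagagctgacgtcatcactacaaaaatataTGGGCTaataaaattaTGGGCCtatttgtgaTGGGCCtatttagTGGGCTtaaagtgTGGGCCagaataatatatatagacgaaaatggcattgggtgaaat
RPL24B held 5 matches, the first bases of which lay 45 to 102 bases before the start, and RPL24A held 0. Other pairs differed among themselves. RPS6A and RPS6B held 1 and 3 matches, with average changes of 1.00 and 0.56. RPS5A and RPS5B held 2 and 0, with close average changes of 0.56 and 0.53. AT5G02870 and AT3G09630, for L4, held 0 and 4, with 0.61 and 0.41. RPL5A and RPL5B held 2 and 4, with 1.05 and 0.83. AT2G40010 and AT3G09200, for P0, held 2 and 1, with 0.67 and 0.48. AT5G27850 and RPL18 held 3 and 1, with 0.50 and 0.46. For S18, RPS18A, AT1G34030 and RPS18C held 0, 1 and 0, with 0.77, 0.67 and 0.33. A link between the element and the flight change was not tested. A match is a run of letters and was not tested for binding.

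L10 joins the large subunit as a late step of its assembly in the cytoplasm, and in Arabidopsis RPL10A is known to act below the receptor kinase NIK1 in defence against viruses. The 3 genes for L10 went different ways. RPL10A was at 415, 378, 423 and 445 rescaled FPKM in WT flight and at 404, 427, 377 and 416 in WT ground. These groups overlapped, with a change of 0.03 (SE 0.07, limma adjusted p = 0.728). In the mutants RPL10A lay between 354 and 419 in flight and between 337 and 456 on the ground. Only in the libraries labelled bzip28 did its groups not overlap, with 406 to 419 in flight and 337 to 399.9 on the ground. Its change of 0.10 in the libraries labelled bzip28 was called with upper quartile scaling (0.16) and with a common nuclear total (0.20).

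RPL10B had a far lower level, at 11.8, 10.9, 11.2 and 10.4 in WT flight and at 5.78, 7.06, 6.93 and 5.67 in WT ground. The flight libraries were all above the ground libraries, and the gene rose by 0.72 (SE 0.12, limma adjusted p = 6.20e-06). It was called higher in the other genotypes as well, with changes of 0.35 to 0.47, although the call in ire1aire1b was lost without flight replicate 3 or ground replicate 1 (0.30 in both). In the mutants it lay between 8.59 and 14.0 in flight and between 6.31 and 10.9 on the ground, with an overlap in bzip28bzip60.

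RPL10C, which the annotation also names as a senescence associated gene, was at 158, 151, 152 and 171 rescaled FPKM in WT flight and at 189, 220, 221 and 222 in WT ground. The flight libraries were all below the ground libraries. The gene fell by 0.43 on the log2 scale in WT (SE 0.12, limma adjusted p = 0.00204), whereas its deposited values were higher in flight by 0.49. The changes were -0.58 in the libraries labelled bzip28, -0.41 in bzip28bzip60 and -0.31 in ire1aire1b, all called, and -0.24 in bzip60 (limma adjusted p = 0.0816). In the mutants it lay between 143 and 173 in flight and between 147 and 335 on the ground, and the groups overlapped in ire1aire1b. On the deposited scale the direction was the opposite, with changes of 0.03 to 0.66, each smaller than the median over all genes of that comparison. In ire1aire1b the call was lost without flight replicate 2 or 4 or ground replicate 3 or 4, where the change ran from -0.30 to -0.22, and in bzip60 a call was gained without ground replicate 4 (-0.29, limma adjusted p = 0.0483). In lane 4 the change was -0.44 with an adjusted p of 0.0969 (limma).

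The upstream bases of the 3 genes for L10 are shown because these paralogs went different ways. They are from TAIR10.1, plus strand, at chr1:4887934-4888113 for RPL10A, chr1:9321513-9321649 for RPL10B and chr1:24838840-24839089 for RPL10C, with site II matches in capitals.
RPL10A: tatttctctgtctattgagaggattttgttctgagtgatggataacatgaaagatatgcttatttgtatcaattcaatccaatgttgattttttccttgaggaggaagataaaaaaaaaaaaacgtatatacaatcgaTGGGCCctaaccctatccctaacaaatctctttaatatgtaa
RPL10B: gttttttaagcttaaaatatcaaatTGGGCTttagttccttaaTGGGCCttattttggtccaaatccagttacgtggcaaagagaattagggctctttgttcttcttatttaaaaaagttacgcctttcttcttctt
RPL10C: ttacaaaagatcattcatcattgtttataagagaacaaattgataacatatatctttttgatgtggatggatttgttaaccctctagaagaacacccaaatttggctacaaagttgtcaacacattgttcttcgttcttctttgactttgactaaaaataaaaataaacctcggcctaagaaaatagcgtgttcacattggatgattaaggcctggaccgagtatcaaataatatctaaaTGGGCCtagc
RPL10A and RPL10C held 1 match each, with its first base 42 and 10 bases before the start, and RPL10B held 2, at 112 and 94 bases.

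L5 carries the 5S ribosomal RNA into the large subunit. RPL5A was at 319, 332, 322 and 332 rescaled FPKM in WT flight and at 162, 144, 133 and 144 in WT ground, and RPL5B had an average change of 0.83 against 1.05 for RPL5A. Both were higher in all 5 genotypes with no overlap between 20 flight and 20 ground libraries. AT2G01250, for L7, averaged 0.88, AT2G19730, for L28, 0.78 and BBC1, for L13, 0.72. The paralogs for L4, a protein that lines the exit tunnel, averaged 0.61 for AT5G02870 and 0.41 for AT3G09630. Those for L18 averaged 0.50 for AT5G27850 and 0.46 for RPL18. AT1G70600, for L27A, averaged 0.52 and EMB2296, for L8 at the peptidyl transferase centre, 0.45.

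The genes for L9 and L3 changed less. L9 had averages of 0.47 for AT4G10450, 0.31 for AT1G33120 and 0.31 for PGY2, a gene known from its effect on leaf polarity. AT1G33120 was called higher in 2 genotypes and PGY2 in 4. Their coding sequences are 99.1 percent identical, so fragments of one can be counted for the other and their separate values are uncertain. Over the 18 paralog pairs the identity ran from 74.1 to 99.1 percent. RPL3A, for L3, a protein near the peptidyl transferase centre, averaged 0.30 and was called higher in 4 genotypes.

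The stalk of the large subunit recruits elongation factors and is made of P0 and the acidic proteins P1 and P2. AT3G09200, the P0 gene of the set with the higher level, averaged 0.48 and was higher in all 5 genotypes. AT2G40010, the other P0 gene of the set, was at 4.79 to 7.80 rescaled FPKM in flight and 1.91 to 6.82 on the ground, with an average change of 0.67. AT1G01100, for P1, was at 436, 345, 355 and 414 in WT flight and at 408, 498, 352 and 398 in WT ground. Here the highest library was from the ground and the groups overlapped. The change was -0.09 (SE 0.11, limma adjusted p = 0.480), and it was not called in any mutant, where flight lay between 345 and 420 and ground between 338 and 495. As deposited AT1G01100 had changes of 0.24 to 0.93, below the median of all genes in bzip28, bzip60, bzip28bzip60, ire1aire1b and WT alike.

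The balance between paralogs within a library needs no scaling between libraries, and is described here without a test. Each share is of the summed FPKM of the genes of the set for that protein, and paralogs outside the set are not counted. RPL24A made up 32.7 ± 1.35 percent of the L24 transcripts in WT flight and 23.95 ± 1.04 percent in WT ground (SD, n = 4). Over the genotypes it took 30.7 to 36.8 percent in 20 flight libraries and 22.1 to 27.8 percent in 20 ground libraries, with no overlap. RPS6A took 41.2 ± 1.88 percent of the S6 transcripts in WT flight and 33.9 ± 2.95 percent in WT ground, and within each genotype its flight libraries lay above its ground libraries. RPL10C took 27.1 ± 0.827 percent of the L10 transcripts in WT flight and 34.1 ± 2.08 percent in WT ground, and flight lay below ground within 4 genotypes. In ire1aire1b 1 ground library was at 24.1 percent, below the flight libraries. RPL10B went from 1.02 ± 0.117 to 1.90 ± 0.171 percent of the L10 transcripts in WT, with no overlap in any of the 5 genotypes. RPS18C had 51.3 ± 2.17 percent of the S18 transcripts in WT flight and 57.1 ± 1.87 percent in WT ground. Its flight libraries lay below its ground libraries within 3 genotypes and overlapped them in bzip60 and bzip28bzip60.

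**Figure D4:**
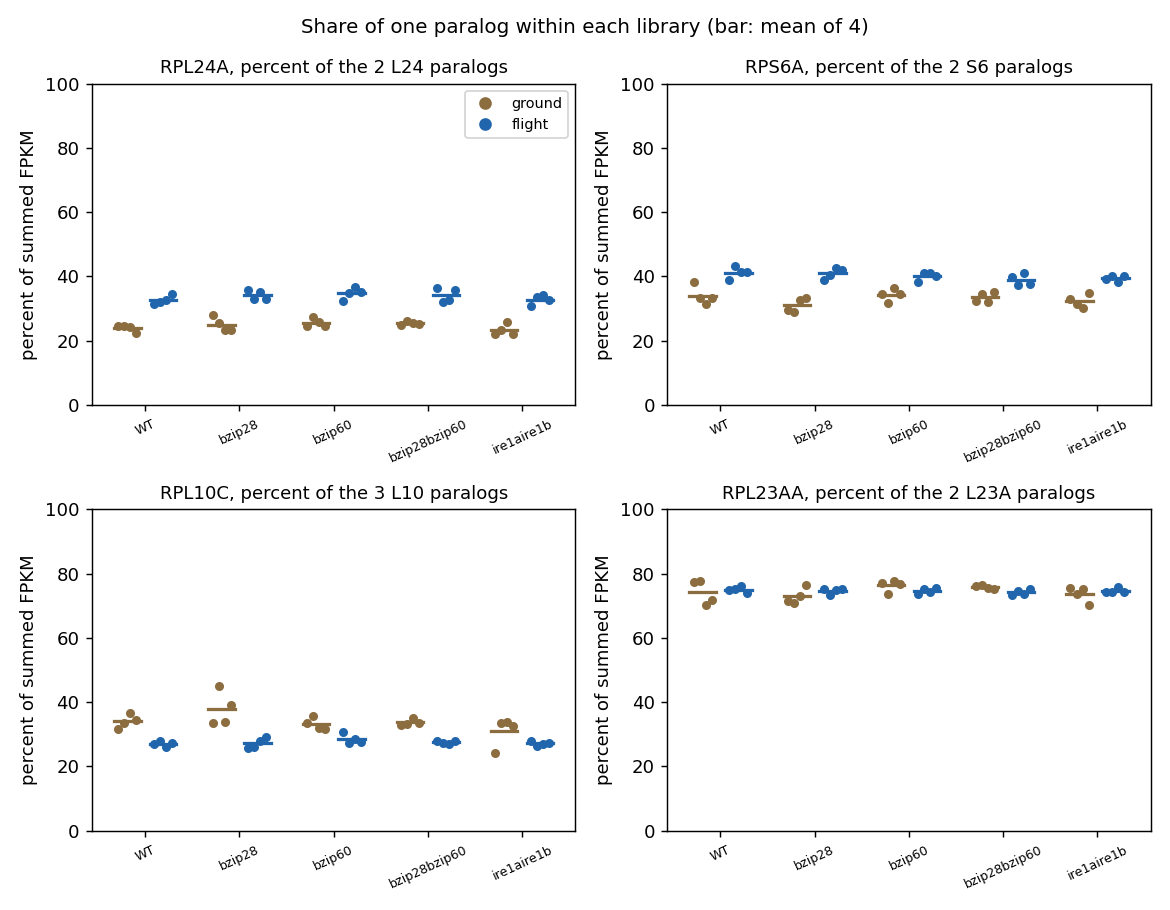
Share of RPL24A, RPS6A, RPL10C and RPL23AA in the summed FPKM of the paralogs of the same protein within the set. Shares are in percent, for each library (points) and as a mean of 4 (bars). RPL24A goes from 22.1 to 27.8 percent on the ground to 30.7 to 36.8 percent in flight, whereas RPL23AA overlaps between conditions in all genotypes but bzip28bzip60.

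RPL5A took 61.3 ± 0.590 percent of the L5 transcripts in WT flight and 57.1 ± 0.954 percent in WT ground, and AT5G02870 took 52.8 ± 0.676 and 47.6 ± 1.65 percent of the L4 transcripts (SD, n = 4), each with flight above ground in 4 genotypes. RPL23AA took 75.1 ± 0.914 percent of the L23A transcripts in WT flight and 74.3 ± 3.76 percent in WT ground (SD, n = 4), with an overlap in 4 genotypes and with flight, at 73.4 to 75.1 percent, below ground, at 75.3 to 76.4 percent, in bzip28bzip60. RPS5A took 71.8 ± 1.46 and 71.3 ± 2.47 percent of the S5 transcripts in WT flight and ground and overlapped in all 5 genotypes. AT3G09200 took 97.5 to 98.5 percent of the summed FPKM of the P0 genes in the set in flight and 96.9 to 99.2 percent on the ground.

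The tested genes of the set were also summed by protein. Only 11 of the 24 proteins had 2 or more tested genes in the set, so the others are single genes. Paralogs outside the set are not in these sums, which are not totals for a protein. For 13 of the 24 all 20 flight libraries lay above all 20 ground libraries, as did 14.2 percent of all tested genes taken singly. The log2 ratio of flight to ground means ran from 1.19 for L23A to -0.10 for L10 and -0.10 for P1. The L10 genes together were at 514 to 627 rescaled FPKM in flight and 531 to 741 on the ground, and overlapped. S2 and S10, each a single gene here, had log2 ratios of 0.00 and 0.16.

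No gene of the set passed the test between a mutant and WT. On the ground the counts were 0 of 38 for each of the 4 mutants (limma, Benjamini-Hochberg), with an unadjusted p below 0.05 for 4 genes in the libraries labelled bzip28, for 3 in bzip60, for 1 in bzip28bzip60 and for 0 in ire1aire1b. Of all genes, 1.14 percent were higher and 2.21 percent lower in bzip28, and 2.26 percent higher and 2.36 percent lower in bzip60. In bzip28bzip60 the same shares were 1.24 and 1.11 percent, and in ire1aire1b 0.188 and 0.297 percent. In flight the counts were again 0 of 38 for each mutant, with 0, 1, 4 and 2 genes past an unadjusted p of 0.05 in the same order. Among all genes 0.0104 percent were higher and 0.172 percent lower in bzip28, 0.0365 and 0.214 percent in bzip60, 0.0261 and 0.292 percent in bzip28bzip60 and 0.0834 and 0.151 percent in ire1aire1b. The lowest adjusted p of the set was 0.0633 for PGY2 in bzip60 on the ground (limma). On the deposited scale 37 of the 38 genes were higher in bzip60 than in WT on the ground, where 69.8 percent of all genes were.

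The flight response of each mutant was also compared with that of WT. None of the 38 genes passed in any of these 4 tests of the difference (limma, Benjamini-Hochberg), and 1 gene had an unadjusted p below 0.05 for the libraries labelled bzip28, 3 for bzip60, 5 for bzip28bzip60 and 3 for ire1aire1b. Of all genes 0.0313 percent were called higher and 0.0156 percent lower in the first difference, 0.0208 and 0.0261 percent in the second, 0.0365 and 0.0469 percent in the third and 0 and 0.00521 percent in the fourth. The median difference of the 38 genes was -0.02, -0.13, -0.18 and -0.11 in the same order, beside medians between -0.01 and 0 over all genes. The 4 differences share the WT libraries. On the deposited scale 28 genes were lower in the bzip60 difference, where 22.2 percent of all genes were.

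The order of the genes was alike in the 5 genotypes. Across the 38 genes the flight changes of any 2 genotypes had a Spearman's rho of 0.90 to 0.96, given as a description, since the genes share libraries within a genotype. Against coding length the average change had a rho of -0.09 and against coding GC content -0.23. Against the ground level, which enters the change itself, rho was -0.53 over the 38 genes.

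Other gene lists of the same pathway were set beside these genes. In WT 35.5 percent of all tested genes were higher and 24.9 percent lower, and as deposited 77.8 percent were higher. Of 157 further cytosolic ribosomal protein loci 148 were tested, and 127 were higher and 4 lower in WT, with a median of 0.59. Examples were AT1G23410, for S27a fused to ubiquitin, with a change of 2.07 (SE 0.28), and AT5G22440, of the L1p/L10e family, with 1.42 (SE 0.12). All 22 tested genes of plastid ribosomal proteins were higher in each genotype, with medians of 1.06 to 1.53. PRPL11 went from 9.74 ± 0.958 rescaled FPKM in WT ground to 52.1 ± 11.2 in WT flight (SD, n = 4). Of 19 assembly factors, which process ribosomal RNA and build the subunits, 11 were higher and 2 lower in WT (18 and 0 as deposited), and NOP56, a core protein of small nucleolar particles, changed by 0.55 (SE 0.07). Of 13 translation factors 3 were higher and 2 lower in WT, with a median of -0.05, but 12 were higher and 0 lower as deposited. LSP1, which is a cap-binding factor of the 4E family, changed by 0.76 (SE 0.10).

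The 5 genes of the TOR and S6 kinase list were all called lower in WT, with a median of -0.60 and RAPTOR1 at -0.83 (SE 0.07). On the deposited scale 0 of the 5 were lower and 2 were higher, where 77.8 percent of all tested genes were higher. The summed level of the 5 genes was 106 to 122 rescaled FPKM in flight and 143 to 185 on the ground. Of 8 markers of dividing cells 6 were higher and 0 lower in WT, beside 35.5 and 24.9 percent of all tested genes. PCNA1, the sliding clamp of DNA replication, went from 1.81 ± 0.826 rescaled FPKM in WT ground to 11.6 ± 1.97 in WT flight (SD, n = 4), and SYP111, the syntaxin of the new wall between daughter cells, changed by 1.63 (SE 0.16). The summed markers of dividing cells were at 138 to 163 in flight and 95.8 to 124 on the ground. The 3 shoot markers together were at 870 to 1863 in flight and 211 to 780 on the ground, and all 3 were called higher in WT. The 4 root markers were at 28.8 to 40.9 in flight and 41.4 to 74.8 on the ground, with SHV2 and NRT2:1 below a mean of 1 FPKM. The 2 tested went opposite ways in WT, PHT1;1, a phosphate transporter, with a change of -1.12 and SCR, a regulator of the endodermis, with 0.60, both called, while as deposited 1 was higher and 0 lower. The 4 seed storage markers summed to at most 0.458 in flight and 7.01 on the ground, and each had a mean below 1 FPKM. The part of these cell types in the change of the ribosomal protein genes was not tested.

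**Figure D5:**
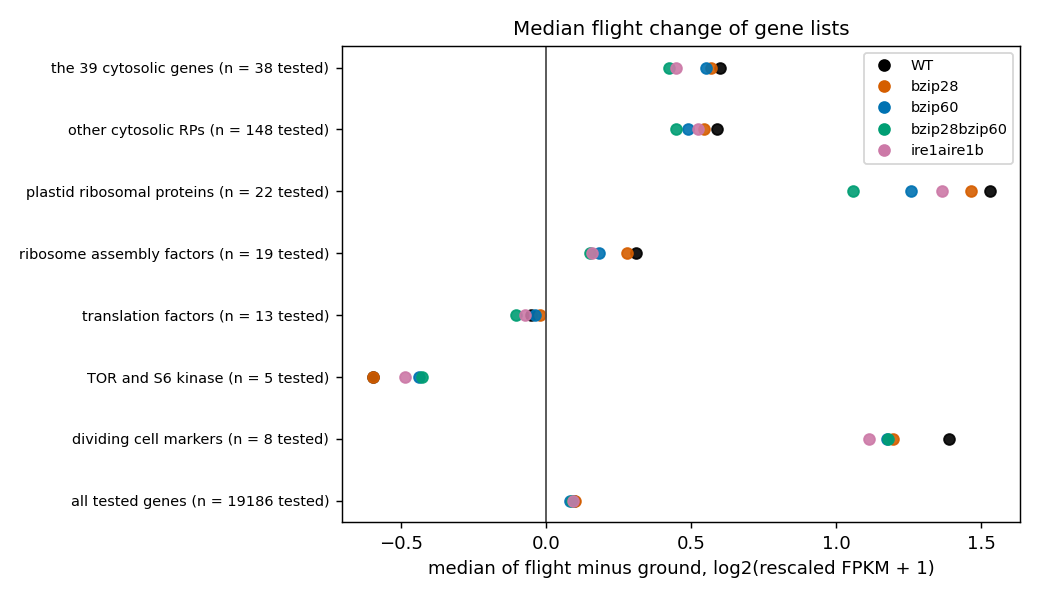
Median of flight minus ground in log2(rescaled FPKM + 1) over the tested genes of each list, by genotype (colours). The 39 cytosolic genes and the other cytosolic ribosomal protein genes lie between 0.42 and 0.60, and the plastid set lies between 1.06 and 1.53. The TOR and S6 kinase list lies below 0 on this scale. As deposited it lies at 0.31 in WT, where the median of all tested genes was 0.88.

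Promoters of the set were searched for 2 elements known from ribosomal protein genes of this plant, on both strands in the 250 bases before the annotated start. Site II, AGCCCA or GGCCCA, was found in 26 of the 39 promoters (66.7 percent), in 70.7 percent of those of the other 157 cytosolic ribosomal protein genes and in 19.2 percent of 27443 nuclear protein-coding genes. The telo box, AAACCCTA, was found in 4 of the 39 (10.3 percent), in 22.9 percent of the other cytosolic set and in 4.49 percent of all. Neither motif contains the other, though their end letters can overlap. Both elements stood in 2 of the 39 promoters, RPS5A and BBC1. That of BBC1 is shown because it holds both, with 1 telo box and 3 site II matches in capitals (TAIR10.1, chr3:18168701-18168950, minus strand).
BBC1: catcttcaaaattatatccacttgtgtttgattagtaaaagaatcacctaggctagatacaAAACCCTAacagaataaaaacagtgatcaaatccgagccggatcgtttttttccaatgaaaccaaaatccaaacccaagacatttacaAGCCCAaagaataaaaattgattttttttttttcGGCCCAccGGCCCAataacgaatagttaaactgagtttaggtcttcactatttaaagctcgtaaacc
The average flight change of the 26 genes with a site II match ran from -0.39 to 1.05 with a median of 0.47, and that of the 12 tested genes without one from 0.31 to 1.19 with a median of 0.69. The ranges overlap, and the difference is a description.

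The pair with the largest changes had no match to either element. Its promoters are given for that reason, from TAIR10.1, plus strand, at chr2:16474061-16474148 for RPL23AA and chr3:20500020-20500233 for RPL23AB, with no capitals because nothing matched.
RPL23AA: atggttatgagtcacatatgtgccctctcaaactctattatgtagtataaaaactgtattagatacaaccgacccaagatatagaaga
RPL23AB: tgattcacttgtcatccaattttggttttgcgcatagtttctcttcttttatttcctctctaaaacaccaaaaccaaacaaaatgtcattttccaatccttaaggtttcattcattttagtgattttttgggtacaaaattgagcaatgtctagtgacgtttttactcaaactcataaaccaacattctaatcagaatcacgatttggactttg
These letters say nothing about which factors bind there.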

How the data were processed

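Whole seedlings of 5 genotypes in flight and ground were profiled by RNA sequencing, and the library kit keeps strand, per the labels' protocols. The authors deposited 1 table of FPKM for 34133 loci and 40 libraries, which leaves out 4 of the 44 labelled samples. The submitters' processing notes name FastQC 0.11.5, cutadapt 1.8.1, Bowtie2 2.2.4, TopHat2 2.0.14 and Cufflinks 1.3.0, with the build TAIR10. The depth per library is unknown, so precision rests on the spread between libraries.

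FPKM was rescaled by median-ratio size factors over 14104 genes above 1 FPKM in all libraries, since the deposited values differed in scale between flight and ground. This takes the typical gene to be equal between libraries. A linear model with a mean for each of 10 groups was fitted to log2(rescaled FPKM + 1) with limma 3.58.1 in R 4.3.3 (lmFit, eBayes with trend, 30 residual degrees of freedom). The 19186 genes with a mean of at least 1 FPKM were tested in 17 comparisons, with Benjamini-Hochberg adjustment within each, and the scripts were tested on simulated data. Named with values from every WT library were the 3 genes of largest and the 3 of smallest average change and their paralogs, and of each other list up to 3 called genes. RPS6A, RPS6B and RPL5A were added after their values were seen, as were single values of other members. The members and lists were chosen with earlier results of these data known. Names, coordinates, coding sequences and promoters came from RefSeq TAIR10.1, matched by locus identifier. Alternatives were the deposited scale, 2 other scalings, a pseudocount of 0.1, no filter, a mean of at least 5 FPKM, leaving out each library, the replicate number as a block, sequencing lane as a term and, added after seeing the data, fits within lanes 2 and 4. Descriptions and figures were made in Python 3.11.15 with Biopython 1.88 and matplotlib 3.10.9.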

Additional observations from a re-analysis of the deposited data

Results flagged for a closer look

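In 25 of the 380 sets of 4 libraries (6.58 percent), each set being a gene in a group, the highest or the lowest library stood apart from the other 3, where chance gives about 1 in 20. All values are rescaled FPKM, set beside the range of the other 3 libraries of the group.

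Several of these sets belong to the same libraries. In bzip60 ground replicate 2 the highest values were those of RPS6B (257 against 234 to 236), AT5G20290 (439.5 against 397 to 402), RPS10B (396 against 307 to 316) and AT2G01250 (164 against 129.6 to 132). In bzip60 flight replicate 1 the lowest were AT5G02870 (184 against 205 to 209), AT2G01250 (191 against 249 to 257) and RPL18 (282 against 359 to 374). In WT flight replicate 4 AT2G31610 was highest (177 against 153 to 156), RPL24A was highest (114 against 85.1 to 87.5) and AT1G34030 was lowest (147 against 170.2 to 172). In flight replicate 1 of the libraries labelled bzip28, RPS13A (328 against 376 to 384) and AT1G34030 (143 against 158 to 161) were lowest. Both this library and WT flight replicate 4 were sequenced in lane 4, and the other libraries used from their groups in lanes 1 or 2. A part of the lane in these sets was not tested.

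RPL10C was highest in ground replicate 2 of the libraries labelled bzip28, at 335 against 204 to 222, and lowest in WT ground replicate 1, at 189 against 220.2 to 222. RPL10A was lowest in bzip28 ground replicate 4 (337 against 399 to 399.9) and in ire1aire1b flight replicate 4 (387 against 403 to 406). RPL23AA was lowest in bzip60 ground replicate 4 (103 against 166 to 168) and in bzip28 flight replicate 3 (274 against 285 to 287), and highest in bzip28bzip60 flight replicate 3 (298 against 275 to 278). In bzip28bzip60 on the ground, RPS6B was highest in replicate 3 (296 against 224 to 233) and BBC1 lowest in replicate 2 (183 against 197 to 200.3). AT2G31610 was highest in WT ground replicate 2 (154 against 133 to 136).

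The other 3 sets were of libraries labelled bzip28. RPS5A was lowest in ground replicate 3 (277 against 283 to 284), AT1G33120 in ground replicate 1 (42.9 against 53.6 to 54.6) and PGY2 in flight replicate 2 (117 against 127 to 128).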

How the results depend on the processing

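The counts of genes higher in flight moved by less than 1.5 times under each alternative fitted to all 5 genotypes. In the fit within lane 2, of 1 flight and 2 ground libraries of bzip60, 0 of 38 were called, against 31. Values below are in the order WT, bzip28, bzip60, bzip28bzip60 and ire1aire1b unless named. On the deposited scale the median changes of the set were 1.52, 1.60, 0.83, 1.14 and 1.41. The counts lower were then 0 in WT, 0 in bzip28, 0 in bzip28bzip60 and 0 in ire1aire1b, and that of ire1aire1b was also 0 with upper quartile scaling and 0 with a common nuclear total. RPL10C reversed to 0.49 in WT, 0.46 in bzip28, 0.31 in bzip28bzip60 and 0.66 in ire1aire1b. AT1G01100 reversed to 0.83, 0.93, 0.66 and 0.80 in the same 4 genotypes, AT2G41840 to 1.04 in bzip28 and 0.58 in bzip28bzip60, and RPL10A to 0.72 in bzip28bzip60 and 0.92 in ire1aire1b. These follow from the scale itself, on which the median of all genes moves by 0.33 to 0.97. On the ground 37 genes were higher in bzip60 than in WT as deposited and 1 with upper quartile scaling, and 28 were lower in the bzip60 response than in that of WT as deposited.

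Without single libraries the count lower ran from 0 to 1 in bzip60, from 1 to 2 in bzip28bzip60 and from 0 to 1 in ire1aire1b, and the count higher in bzip60 against WT on the ground ran from 0 to 2. The libraries behind these were bzip60 ground replicate 4, bzip28bzip60 ground replicate 4 and, in ire1aire1b, flight replicates 2 and 4 and ground replicates 3 and 4. The cause was not tested. Pairing by replicate number was weak, as deviations of same-numbered flight and ground libraries had correlations of -0.11 to 0.17. The sample titles also carry a letter-and-number code that the replicate numbers do not always follow. Pairing by that code was not tested. With the replicate block 34, 33, 31, 29 and 30 genes were higher, the counts without it. With lane as a term the counts were 33, 32, 32, 29 and 31. FPKM gives no depth, so low genes such as AT5G59240 carry an unknown counting error.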
